A study of Mus musculus with 4 samples.

Results

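The 10 genes described here encode cyclin-dependent kinases (CDKs): Cdk1, Cdk2, Cdk4, Cdk5, Cdk6, Cdk7, Cdk8, Cdk9, Cdk10 and Cdk12. They were chosen by name as members of this kinase family, with earlier results of these peak lists known, and make up 10 of the 22380 protein-coding genes of the GENCODE M1 annotation, which is built on the same assembly as mm9. Chromatin of E14 mouse embryonic stem cells (ESCs) was studied by ChIP-Seq of biotin-tagged Myc (Bio-Myc) and of its dimerization partner Max. The Bio-Myc ChIP used streptavidin beads on a stable clone of E14 ESCs in which Myc carries an N-terminal biotin tag and is driven by the ubiquitous EF1α promoter, in a line that also expresses the biotin ligase BirA. The Max ChIP used an antibody against endogenous Max in wild-type parental E14 ESCs. The respective controls were a mock streptavidin ChIP, whose cells are parental wild type in the labels but BirA-expressing cells lacking tagged Myc in the methods, and an IgG ChIP in parental cells. No cells were treated, and the methods grew ESCs with LIF. The precipitated protein, the tag, the clone with its added Myc, the kind of bead and the control differ between both ChIPs together. Their parts in a difference between the lists therefore cannot be told apart. From these 4 samples, 2 lists of peaks were used, 3962 peaks for Bio-Myc and 11570 for Max. The paper's abstract gives more Myc binding sites than this Bio-Myc list holds peaks, and a figure legend gives the same number as TSSs. The sources used here do not say whether the list holds every peak that was called. Each absent Bio-Myc peak below is therefore an absence from this list. Each list comes from 1 library, so none of the values has an error between cultures and no difference between the lists was tested. The lists hold no expression values, so the cells could not be checked against marker genes, and the number of reads is unknown.

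CDKs are protein kinases that need a partner subunit, usually a cyclin, to be active. Cdk1, Cdk2, Cdk4 and Cdk6 drive the phases of the cell cycle, and are here called the cell-cycle kinases. Cdk7, Cdk8, Cdk9 and Cdk12 act mainly on RNA polymerase II and its cofactors, and are here called the transcription kinases. Cdk7 also has a place in the first class, because the complex of Cdk7, cyclin H and Mat1 phosphorylates the activation loop of the cell-cycle kinases. Cdk5, best known from neurons, and Cdk10, a partner of cyclin M, belong to neither class. Myc and Max bind DNA as a dimer, preferably at the E-Box CACGTG, and ESCs are known for a rapid cell cycle with a short G1 phase.

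Within 1 kb of an annotated transcription start site (TSS), 6 of the 10 CDK genes had a Bio-Myc peak: Cdk1, Cdk4 and Cdk6 among the cell-cycle kinases and Cdk7, Cdk8 and Cdk12 among the transcription kinases. Of all protein-coding genes, 14.6% had one (95% Wilson interval 14.2 to 15.1%, which covers counting error only). A Max peak lay in the same window of 7 of the 10 genes, those 6 and Cdk10, against 34.8% of all protein-coding genes. Both peaks were present at 6 of the 10, against 12.7%. Cdk2, Cdk5 and Cdk9 had neither. Because of how the genes were chosen, the counts describe them and do not test a group of them.

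**Figure D1:**
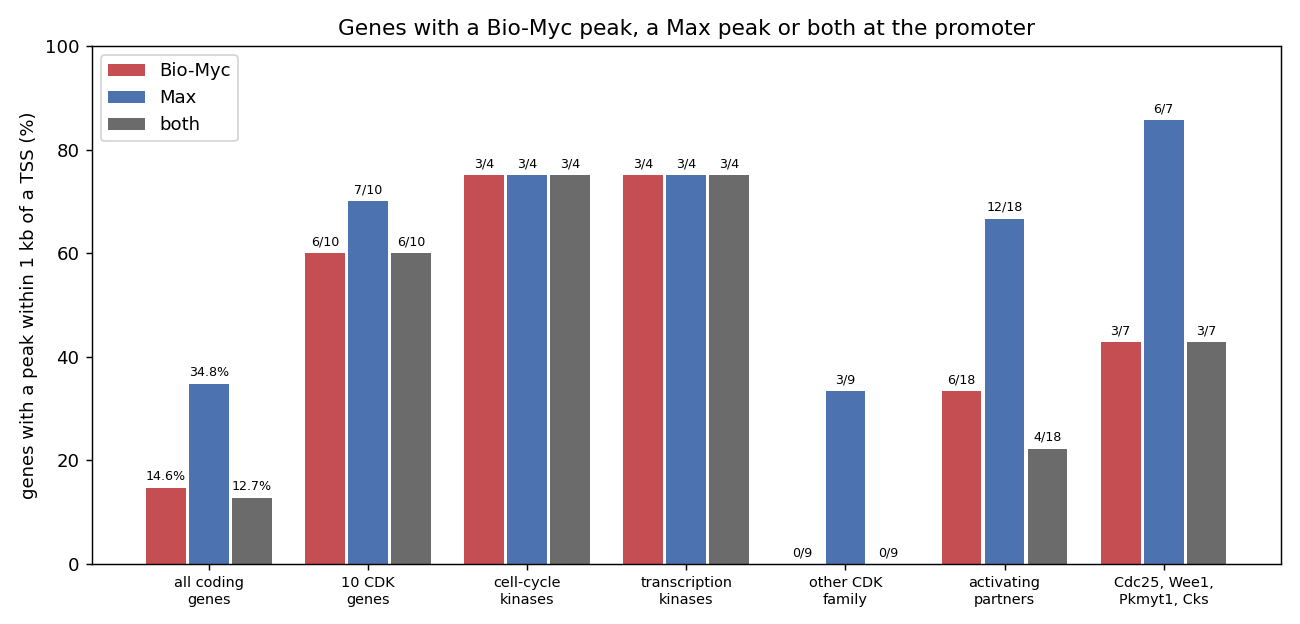
Share of genes with a Bio-Myc peak (red), a Max peak (blue) or both (grey) within 1 kb of any annotated TSS, in percent, for all protein-coding genes, the 10 CDK genes, their classes and related gene lists. The numbers above the bars are genes with a peak out of genes in the list, or percentages for all protein-coding genes, and the cell-cycle and the transcription kinases each had 3 of 4 in every bar.

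Within 1 kb, the classes did not differ in these counts. Each list had a peak at 3 of 4 cell-cycle kinases and at 3 of 4 transcription kinases. With Cdk7 counted among the cell-cycle kinases, both peaks were found at 4 of 5 cell-cycle kinases and at 2 of 3 transcription kinases. Within 500 bp of a TSS, the Bio-Myc list reached 2 of 4 cell-cycle kinases and 3 of 4 transcription kinases, against 14.1% of protein-coding genes. The Max list reached 3 and 2 there, against 33.7%. These class counts were the same where a peak had to cover the TSS. Within 5 kb of a TSS, the Bio-Myc list reached 7 of the 10 genes and the Max list 7, against 16.6% and 38.6% of protein-coding genes. Both lists reached 6, against 14.5%. The gene added by the wider window was Cdk5.

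The sequence CACGTG was found under promoter peaks of 5 genes, Cdk1, Cdk4, Cdk6, Cdk7 and Cdk8, at 12 places. In the mm9 sequence, 11 of these lay upstream of the outermost annotated TSS and 1 in an intron, that of Cdk1. The distance to the outermost TSS ran from 5 to 2373 bp, and 8 of the 12 boxes lay within 250 bp of it. For the 4 genes other than Cdk4, the box nearest to the TSS is shown with 12 bases to either side. The boxes far upstream of Cdk6 are shown in the same way. All of them lie under a promoter peak of at least 1 of the factors. A further box of Cdk8, 724 bp upstream under its Bio-Myc peak, is not shown. Each sequence is on the strand of its gene, 5′ to 3′, with the E-Box in capitals.

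Cdk1, chr10:68815440-68815469, 229 bp downstream of the TSS: gggtagggcctcCACGTGagatcttggtct
Cdk6, chr5:3341503-3341532, 2373 bp upstream: ccgcggggcgaaCACGTGcgggggcagaca
Cdk6, chr5:3341580-3341609, 2296 bp upstream: gggccacggactCACGTGggtgggctgagg
Cdk6, chr5:3342224-3342253, 1652 bp upstream: actcgtcctgtgCACGTGggcgtatctgcg
Cdk6, chr5:3343661-3343690, 215 bp upstream: gttctgcggcccCACGTGggtgaacccccg
Cdk7, chr13:101500980-101501009, 95 bp upstream: gggtactgtgtgCACGTGgcagcggggaag
Cdk8, chr5:147042583-147042612, 206 bp upstream: actgggttagtcCACGTGgtaagtctgtca

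The stretch of the Cdk4 promoter from the first box to the base before the outermost TSS is shown with 12 bases in front (chr10:126500407-126500589, plus strand, 183 bases), since it held 4 boxes in a row, 166, 112, 92 and 5 bp upstream of that TSS.

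Cdk4: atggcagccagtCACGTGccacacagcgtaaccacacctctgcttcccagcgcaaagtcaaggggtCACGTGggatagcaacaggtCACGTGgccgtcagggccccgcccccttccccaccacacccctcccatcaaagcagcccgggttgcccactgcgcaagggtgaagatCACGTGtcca

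In the 300 bp upstream of the outermost TSS, 7.39% of the 22380 protein-coding genes held at least 1 CACGTG, 0.621% at least 2, 0.0983% at least 3 and 0.0179% at least 4, which is 4 genes including Cdk4. On the plus strand, each of the 4 boxes of Cdk4 is preceded by a T. Read on either strand, TCACGTG was present at 6 of the 12 boxes, at 33.8% of the 1995 boxes under Bio-Myc peaks within 1 kb of a protein-coding TSS and at 37.2% of the 3593 boxes under such Max peaks. CCACGTG, which can overlap it on the other strand, was present at 9 of the 12, at 59.5% of the boxes of Bio-Myc and at 57.9% of those of Max. With so few boxes, these shares are a description only.

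**Figure D2:**
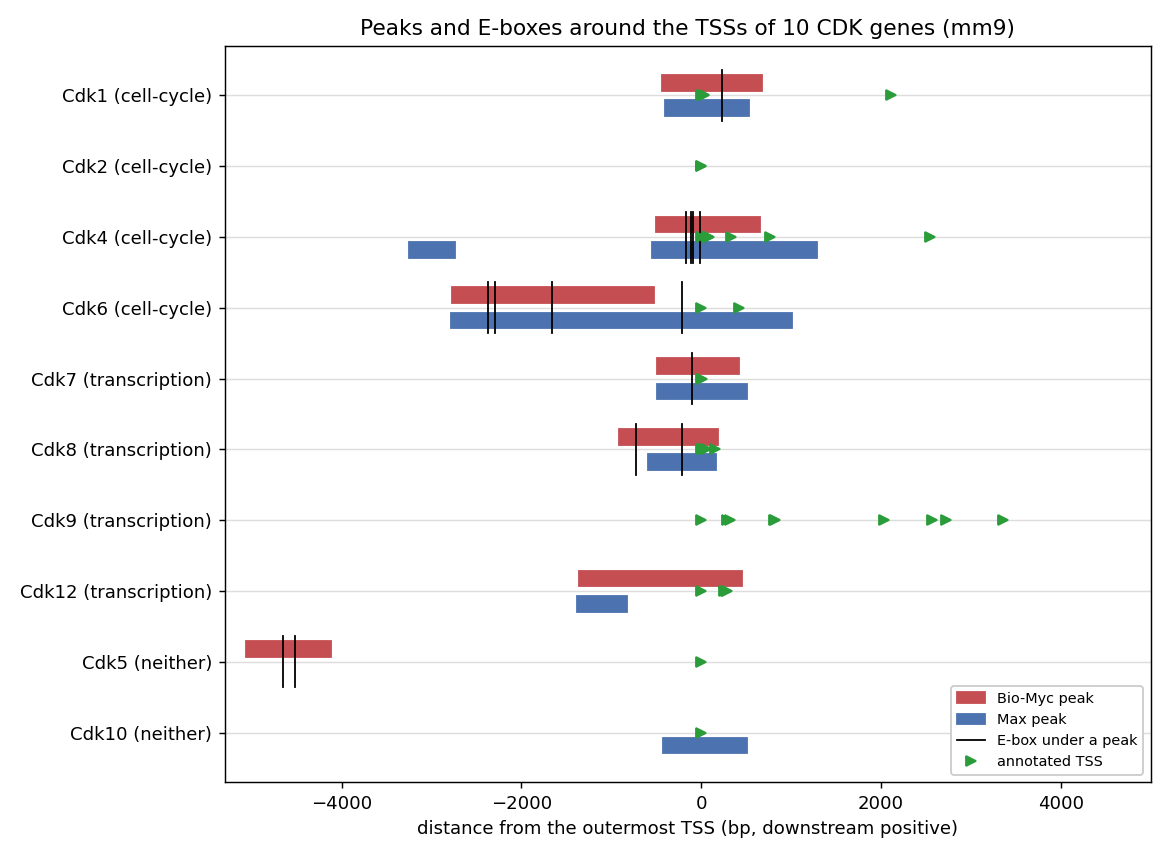
Bio-Myc peaks (red) and Max peaks (blue) within 5 kb of a TSS of each CDK gene, drawn to scale by distance in bp from the outermost TSS of the gene, with downstream to the right. Green arrowheads are annotated TSSs and black lines are E-Boxes under a peak, and the peaks of Cdk1, Cdk4, Cdk7 and Cdk8 cover the TSS in both lists, while Cdk2 and Cdk9 have no peak in the range.

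Cdk1, the kinase of mitotic entry (ENSMUSG00000019942.6), spans 68799383 to 68815686 of chromosome 10 on the minus strand. A Bio-Myc peak from 68815008 to 68816119 had a score of 169. A MACS score is the negative log10 of the p-value of the peak times 10, so the limit of the authors, a p-value of 1e-08, is a score of 80. Scores depend on the depth of the library, so a Bio-Myc score and a Max score cannot be compared, also where both are printed together. The promoter peaks of the 10 genes are given with their rank in their own list. Peaks farther away and those of related genes are mostly given by score alone. The Bio-Myc peak of Cdk1 ranked 1300 of 3962 (32.8% from the top). A Max peak from 68815157 to 68816088 had a score of 201 and ranked 4385 of 11570 (37.9%). Both covered 3 of the 7 annotated TSSs, those at the 5′ end of the gene. The Max peak lay wholly within the Bio-Myc peak, and their centres were 59 bp apart. The single E-Box was at 109 bp from the Bio-Myc centre and at 168 bp from the Max centre.

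Cdk4 and Cdk6 are the kinases of the D-type cyclins, which act in G1. Cdk4 (ENSMUSG00000006728.6, plus strand of chromosome 10 from 126500590 to 126504976) had a Bio-Myc peak from 126500091 to 126501243 over 7 of its 9 TSSs, centred in the 5′ UTR. Its score of 136 was the lowest Bio-Myc score among the 6 genes and ranked 1826 (46.1%). The Max peak, from 126500044 to 126501879, covered 8 of the 9 TSSs with a score of 768 and ranked 349 (3.02%). Each peak held all 4 E-Boxes. Under promoter peaks as a whole, 4 or more were held by 0.828% of 2900 in the Bio-Myc list and by 0.396% of 7569 in the Max list. The box nearest to the centre was 84 bp away in the Bio-Myc peak and 379 bp away in the wider Max peak. A second, weak Max peak (score 91.6, rank 10202) lay 2735 bp upstream of the TSS and within 1 kb of a TSS of March9.

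Cdk6 (ENSMUSG00000040274.5, plus strand of chromosome 5 from 3343893 to 3523218) had the highest score of the 10 genes in both lists. Its Bio-Myc peak, from 3341125 to 3343365, had a score of 519.8 and ranked 123.5, a tie, which is 3.12% from the top. Its Max peak, from 3341104 to 3344907, had a score of 1497 and ranked 55 (0.475%). The Bio-Myc peak ended 528 bp upstream of the first TSS, while the Max peak covered both annotated TSSs. The whole Bio-Myc peak was inside the Max peak. The Max peak was 3804 bp wide, and 18 of the 11570 Max peaks were at least as wide. The Bio-Myc peak was 2241 bp wide, and 59 of 3962 reached that width. The E-Box 1652 bp upstream was 6 bp from the Bio-Myc centre. The box 215 bp upstream lay under the Max peak alone. In the Bio-Myc list, 3 or more E-Boxes were held by 3.72% of promoter peaks, and the Cdk6 peak held 3.

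Cdk2, the kinase of cyclins E and A (ENSMUSG00000025358.9, minus strand of chromosome 10 from 128134995 to 128142107), was the cell-cycle kinase without a promoter peak. The nearest Max peak was 8019 bp downstream of its single TSS, had a score of 95.8 and lay within 1 kb of a TSS of Rab5b. In the Bio-Myc list the nearest one was 42.3 kb upstream, with a score of 97.8, over a TSS of Wibg. Both nearest peaks therefore lay at the promoters of other genes.

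Among the transcription kinases, Cdk7, the kinase of the general transcription factor TFIIH, had the peak centres closest to each other. Cdk7 (ENSMUSG00000069089.6) spans 101466982 to 101500897 of chromosome 13 on the minus strand. Its Bio-Myc peak, from 101500481 to 101501387, had a score of 426 and ranked 207 (5.22%), and its Max peak, from 101500383 to 101501390, had a score of 501 and ranked 966 (8.35%). Both covered both TSSs, and their centres were 48 bp apart, the smallest distance among the 6 genes. The single E-Box, 95 bp upstream of the TSS, stood 61 bp from the Bio-Myc centre and 108 bp from the Max centre.

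Cdk8, a kinase of the Mediator complex (ENSMUSG00000029635.9, plus strand of chromosome 5 from 147042806 to 147114450), had a Bio-Myc peak that spanned 147041891 to 147042989, scored 338 and ranked 352 (8.88%). Its Max peak, from 147042210 to 147042971, had a score of 182 and ranked 4950 (42.8%). Both covered 4 of the 6 TSSs, and the Max peak lay within the Bio-Myc peak. The E-Box 206 bp upstream of the TSS was 7 bp from the Max centre and 158 bp from the Bio-Myc centre. A further box, 724 bp upstream, was under the Bio-Myc peak alone.

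Cdk12, which phosphorylates the tail of elongating RNA polymerase II together with cyclin K, had peaks of another form. Cdk12 (ENSMUSG00000003119.7) spans 98064373 to 98139818 of chromosome 11 on the plus strand. Its Bio-Myc peak, from 98063009 to 98064825, covered 4 of the 7 TSSs with a score of 229 and ranked 756 (19.1%). Its Max peak, from 98062993 to 98063552, ended 821 bp upstream of the first TSS, had a score of 93.0, close to the limit of 80, and ranked 10061.5 (87.0%). The peaks shared 544 bp, which is 97.1% of the Max peak and 29.9% of the Bio-Myc peak, and the centre of the Bio-Myc peak was outside the Max peak. Cdk12 was the only one of the 6 genes with this arrangement. Neither peak held a CACGTG or the related CACGCG on either strand.

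Cdk9, the kinase of the elongation factor P-TEFb (ENSMUSG00000009555.10, minus strand of chromosome 2 from 32561304 to 32568596), had no peak within 5 kb of any of its 9 TSSs. The nearest peaks of both lists, 15.1 kb downstream for Bio-Myc (score 331) and 14.6 kb for Max (score 335), covered a TSS of Fpgs, the gene of folylpolyglutamate synthase.

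For the kinases of neither class, the lists parted. Cdk10 (ENSMUSG00000033862.6, plus strand of chromosome 8 from 125748741 to 125756150) had a Max peak from 125748315 to 125749253 over its single TSS, with a score of 237, a rank of 3499 (30.2%) and no E-Box. Its nearest Bio-Myc peak was 122 kb upstream, over a TSS of the ribosomal protein gene Rpl13. Chromosome 8 held 6.34 Max peaks for each Bio-Myc peak, against 2.44 to 3.37 on the other 18 autosomes, and a Max peak lay within 1 kb of a TSS of 60.6% of its protein-coding genes, against 24.9 to 49.2% on the others. A Bio-Myc peak lay there in 16.7% of its genes, within the range of the others (9.22 to 18.9%). Whether the Max peak of Cdk10 has a part in this excess was not tested. Cdk5 (ENSMUSG00000028969.6, minus strand of chromosome 5 from 23924068 to 23929348) had a Bio-Myc peak 4115 bp upstream of its TSS, with a score of 103, a rank of 2783.5 (70.3%) and 2 E-Boxes. That peak covered a TSS of the neighbouring Slc4a2, an anion exchanger gene, and the nearest Max peak was 6595 bp downstream of the TSS of Cdk5.

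**Figure D3:**
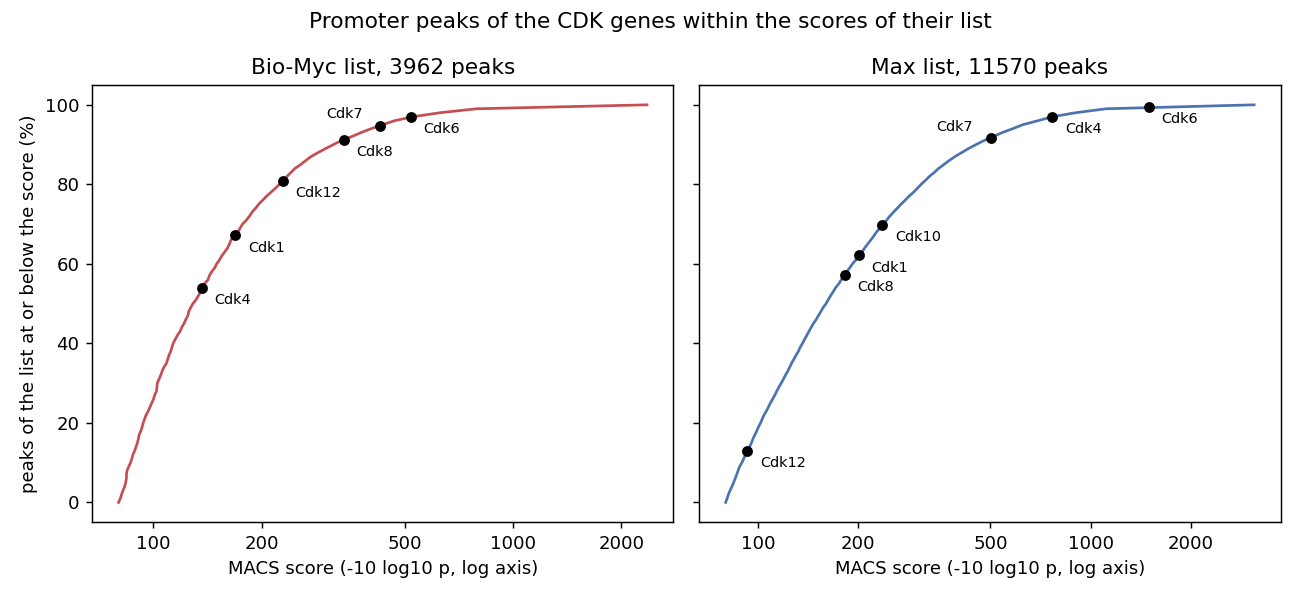
Promoter peaks of the CDK genes (black points) on the cumulative distribution of scores of their list, Bio-Myc on the left and Max on the right, with the MACS score on a log axis and the share of peaks at or below that score in percent. Cdk6 is the highest point in both lists, Cdk4 is the lowest in the Bio-Myc list and near the top in the Max list, and Cdk12 is the lowest in the Max list.

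The order of the genes thus differed between the lists. By rank in the Bio-Myc list it was Cdk6, Cdk7, Cdk8, Cdk12, Cdk1 and Cdk4, and in the Max list Cdk6, Cdk4, Cdk7, Cdk10, Cdk1, Cdk8 and Cdk12. The 6 Bio-Myc peaks all stood in the upper 50% of their whole list, with a median score of 284. In the top 10% of that list were 3 of them (Cdk6, Cdk7 and Cdk8). The median of all 2900 Bio-Myc peaks within 1 kb of a protein-coding TSS was 138, slightly above Cdk4 (136). The top 10% of these promoter peaks began at a score of 352, which Cdk8 (338) did not reach. The 7 Max peaks had a median score of 237, against 181 over 7569 such peaks. Of the 7, 3 stood in the top 10% of the whole Max list (Cdk6, Cdk4 and Cdk7) and 6 in its upper 50%. The top 10% of the 7569 promoter peaks began at 501.01, just above Cdk7 (500.99). Percent ranks in lists of such unequal length are not centred on each other. Of the 2410 promoter pairs of overlapping peaks, 65.9% stood higher in the Max list, with a median shift of 10.02 percentage points. Both ranks were therefore also taken among these pairs alone, a choice made after the data were seen. On that scale Cdk4 stood 48.1 points higher by its Max peak, and 8.76% of pairs stood at least as far in that direction. Cdk8 stood 61.0 points higher by its Bio-Myc peak (2.74% of pairs) and Cdk12 70.9 points (1.08%). For Cdk1 the difference was 26.5 points toward Bio-Myc (19.96% of pairs), for Cdk7 13.5 points the same way (33.8%), and for Cdk6 3.88 points toward Max (42.1%). In the whole lists the directions were those of the pairs, with differences of 43.1 points for Cdk4 (18.96% of pairs), 33.9 for Cdk8 (5.39%), 67.9 for Cdk12 (0.539%), 5.09 for Cdk1 (24.5%), 3.12 for Cdk7 (28.0%) and 2.64 for Cdk6 (61.0%). With 1 library for each ChIP, these differences have no error.

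The E-Box was present under 5 of the 6 Bio-Myc promoter peaks, against 49.6% of the 2900 Bio-Myc peaks within 1 kb of a protein-coding TSS (47.8 to 51.4%). It was present under 5 of the 7 Max promoter peaks, against 36.6% of 7569 (35.5 to 37.7%). Most of the peaks were wider than the medians of 1054 and 860 bp for such peaks, some of them only slightly. The widths ran from 907 to 2241 bp for Bio-Myc and from 560 to 3804 bp for Max. Whether width has a part in these shares was not tested. In the central 200 bp of the peak, the E-Box was found in 3 of the 6 Bio-Myc peaks (Cdk4, Cdk6 and Cdk7), against 18.0% of the 2900 promoter peaks of that list. It was found there in 1 of the 7 Max peaks (Cdk8), near the 17.2% of the 7569 in that list. None of the promoter peaks of the 7 genes lay within 1 kb of an annotated TSS of another gene, so they were not shared with a neighbouring promoter.

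CpG content is a property of promoters that the choice of genes did not use. The ratio of observed to expected CpG in the 500 bp to either side of the outermost TSS was 0.6 or more at 9 of the 10 genes and ran from 0.526 at Cdk1 to 0.979 at Cdk8, with a median of 0.755 against 0.549 over all protein-coding genes. Of the genes without a promoter peak, Cdk2 had 0.738, Cdk9 0.776 and Cdk5 0.622. Each was above the median of all protein-coding genes, while Cdk2 and Cdk5 were below the median of the 10 genes. Whether CpG content has a part in the absence of these peaks was not tested. Of the 10212 protein-coding genes at 0.6 or more, within 1 kb the Bio-Myc list reached 27.0% and the Max list 59.8%, a higher background than that of all genes. Of the 9 CDK genes in this range, the Bio-Myc list reached 5 and the Max list 6. For Max, the share of the CDK genes is near this background.

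**Figure D4:**
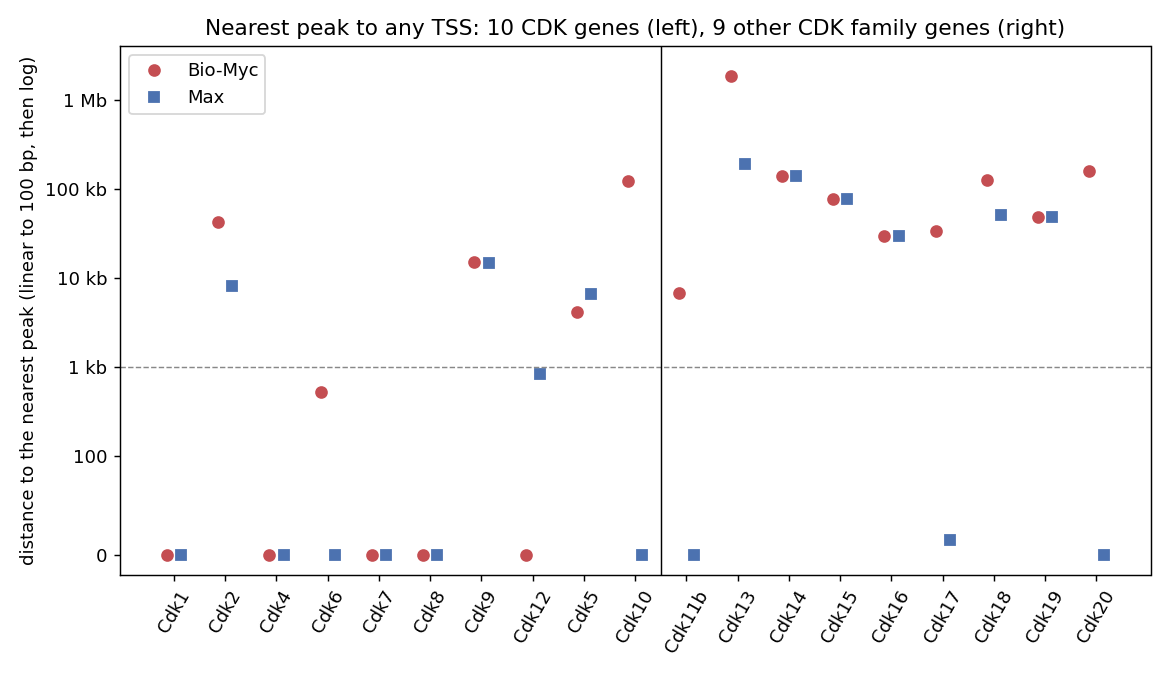
Distance from any annotated TSS to the nearest Bio-Myc peak (red circles) and the nearest Max peak (blue squares), on an axis that is linear to 100 bp and logarithmic above, for the 10 CDK genes left of the vertical line and 9 other CDK family genes right of it. The dashed line marks 1 kb, below which lie the Bio-Myc peaks of 6 genes on the left and of 0 on the right, beside 14.6% of all protein-coding genes. The difference between both sides was not tested.

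Of the 9 other genes of the CDK family, Cdk11b and Cdk13 to Cdk20, 3 had Max at the promoter (1 kb), near the 34.8% of all protein-coding genes. A Bio-Myc peak was present at 0 of the 9 within 1 kb, beside 14.6% of all genes, and at 0 within 5 kb, beside 16.6%. With 9 genes, a count of 0 is close to these shares. The Max peaks were at Cdk11b (score 274), Cdk17 (105) and Cdk20 (214, with 3 E-Boxes under the peak). The paralogs of Cdk8 and Cdk12 had no promoter peak. Cdk19, which takes the place of Cdk8 in Mediator, had its nearest Bio-Myc peak at 47.9 kb and its nearest Max peak at 48.1 kb. Cdk13, which like Cdk12 pairs with cyclin K, had them at 1818 kb and 188 kb. The CpG ratios of Cdk19 and Cdk13 were 0.917 and 1.07, and those of Cdk8 and Cdk12 were 0.979 and 0.791. The ratio was 0.6 or more at 5 of these 9 genes, against 9 of the 10 described above, and at Cdk14 and Cdk15 it was 0.299 and 0.298.

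The partner subunits of the kinases were looked up in the same window. Of 18 cyclins and other activating partners, 6 were in the Bio-Myc list, 12 in the Max list and 4 in both, beside 14.6%, 34.8% and 12.7% of all protein-coding genes. Among protein-coding genes with a CpG ratio of 0.6 or more, the shares were 27.0% for Bio-Myc and 59.8% for Max. Most of the 18 partners were in that range, and their counts were not adjusted for it. The genes are given one by one as a description. For Cdk2, which had no peak, both peaks were present at its cyclin genes Ccna2 (scores 184 and 87.9), Ccne1 (119 and 251) and Ccne2 (277 and 1580, the Max peak ranking 48 of 11570). For Cdk9, both were present at Ccnt1 (108 and 282), and a Bio-Myc peak alone at Ccnt2 (110). Of the partners of Cdk7, Ccnh had a Max peak alone (129) and Mnat1 no peak of either list, and Ccnk, the partner of Cdk12, had neither. At Cdk8, a Bio-Myc peak alone was present at its cyclin gene Ccnc (98.7), a Max peak alone at Med12 (81.3) and no peak at Med13. The remaining cyclin genes of the cell-cycle kinases, Ccnb1, Ccnb2, Ccnd1, Ccnd2 and Ccnd3, had a Max peak alone. So had Cdk5r2, while Cdk5r1, the other activator of Cdk5, had no peak. Within 5 kb, a Bio-Myc peak was also present at Ccnd1 and Ccnd3.

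Of 7 genes that set the phosphorylation state of the kinases or bind them as Cks proteins, the Bio-Myc list reached 3 and the Max list 6. The shares were the same 14.6% and 34.8% of all genes, and 27.0% and 59.8% of those with a CpG ratio of 0.6 or more. Both were present at Wee1, the kinase that inhibits Cdk1 (Bio-Myc score 679.6, rank 65, and Max score 885, rank 242, each peak with 3 E-Boxes). They were also present at the phosphatase gene Cdc25a (177 and 121) and at Cks1b (307 and 401), without an E-Box. Cdc25b, Pkmyt1 and Cks2 had a Max peak alone, and Cdc25c had no peak within 1 kb.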

How the data were processed

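ChIP DNA of the Bio-Myc, mock, Max and IgG ChIPs, 1 library each, was sequenced by the authors on an Illumina HiScanSQ. Per the labels, CASAVA 1.8, Bowtie 0.12.7 and MACS 1.4.1 were used with mm9. The authors aligned reads uniquely, allowing 2 mismatches, merged duplicates, and called peaks of each ChIP over its control at a p-value of 1e-08. The deposited score is the log10 of the p-value from MACS with its sign turned, times 10. Unique mapping leaves out repeated sequence, and at a fixed p-value the number of peaks follows the depth, which is not given in the sources used here, so no absent peak shows absent binding.

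Peaks were set beside mm9 and GENCODE M1 (Ensembl 65), with coordinates counted from 1. A gene was counted where at least 1 bp of a peak fell no farther than 1 kb from one of its annotated TSSs, and the widths, ranks (ties at the mean rank), E-Boxes and CpG ratios were computed from both lists and the sequence. CACGTG reads alike on both strands. CpG-rich promoters as a background, ranks among overlapping pairs and leaving out chromosome 8 were chosen after the data were seen. The members and lists were chosen with earlier results of these data known. All 10 genes are named with every peak within 5 kb, and the related genes by whether they had both peaks, 1 or none. No test was made, since there are no replicates. The tools were pysam 0.24.0, matplotlib 3.10.9, scipy 1.17.1 and numpy 2.4.6 under Python 3.11.15, and 11 of 11 steps tested on simulated data returned the known answer. Mock and IgG entered only as the authors' controls in peak calling.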

Additional observations from a re-analysis of the deposited data

How the results depend on the processing

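Of 91 recomputed values over 16 results, 82 stayed within 1.5 times the reported value. Some could not move, such as the Bio-Myc counts when only the Max list was shortened. A step from 6 genes to 4 also stays within 1.5 times, so with such small counts the tally says little about stability. With the Max list limited to its 3962 highest-scoring peaks, as many as in the Bio-Myc list, 4 genes had a Max peak. They were Cdk4, Cdk6, Cdk7 and Cdk10, against 15.5% of all protein-coding genes in this shorter list. Both peaks were present at 3 genes, against 8.33%. A Max peak remained at 2 of the 4 cell-cycle kinases and at 1 of the 4 transcription kinases (Cdk7). An E-Box in the central 200 bp was found at 3 genes for Bio-Myc and at 1 for Max, against 18.0% and 17.2% of all promoter peaks. In the central 500 bp it was found at 5 genes for Bio-Myc, as under the whole peaks, and at 3 for Max. The share of all promoter peaks was not computed for the central 500 bp. Fewer bases were read in these settings, and whether this has a part in the lower counts was not tested. Where a peak had to cover the TSS, 5 genes had a Bio-Myc peak (without Cdk6) and 6 a Max peak (without Cdk12). The shares of all protein-coding genes were then 13% and 30%. At a score of 150 or more, the Bio-Myc peak of Cdk4 and the Max peak of Cdk12 were lost. That left 5 genes with a Bio-Myc peak and 6 with a Max peak, against 6.85% and 22.6% of protein-coding genes. With ranks taken among overlapping pairs, the rank differences of Cdk1, Cdk7 and Cdk8 grew from 5.09, 3.12 and 33.9 points to 26.5, 13.5 and 61.0 points in the direction they had, and the cause was not tested. Without chromosome 8, 6 of 9 genes had a Max peak, and the share of protein-coding genes was not recomputed for this setting. No paired analysis was possible because each ChIP is 1 library.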
